A study of Mus musculus with 4 samples.

Results

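The enzymes that oxidise and remove DNA methylation (DNAme), and the factors that shield it, were followed through mouse oocyte growth for 7 genes chosen by name among the 25587 genes with deposited values, which were Tet1, Tet2, Tet3, Tdg, Dppa3, Zfp57 and Trim28. Each of them was counted in every library, with 5 reads at the lowest. RNA came from wild-type C57BL/6Babr mice between 5 and 20 days old and was sequenced as 1 library per stage after removal of ribosomal RNA, from pools of oocytes of many animals. The stages were non-growing oocytes (NGOs), growing oocytes of younger mice (GO1), growing oocytes of older juvenile mice (GO2) and fully grown oocytes (FGOs), which carry the label of germinal vesicle oocytes. The labels name no treatment for any stage. The dUTP method was used for NGOs and FGOs, and ScriptSeq v2 for both groups of growing oocytes. Stage and protocol cannot be told apart when a library of one kind is set against one of the other. Changes were therefore measured within a protocol only, from GO1 to GO2 and from NGOs to FGOs. Without a second library of any stage no test was possible, and intervals in this section are 95 % intervals of counting error alone. Counted reads are not independent molecules, so the true uncertainty is wider.

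TET enzymes oxidise methylated cytosine, and the thymine DNA glycosylase TDG can cut out the more oxidised bases so that repair restores an unmethylated cytosine. DPPA3, also called Stella or PGC7, is a maternal protein that protects methylation of the maternal genome in the zygote, where the TET3 enzyme stored in the egg acts mainly on the paternal genome. ZFP57 is a KRAB zinc finger protein that binds methylated imprinted regions, and it recruits TRIM28 (KAP1), the scaffold for histone methyltransferases and DNA methyltransferases that keep imprints through early development. Since DNAme is laid down in growing oocytes and must then pass through fertilisation, transcripts of these genes in the oocyte are part of the maternal store.

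Levels are given as RPKM as deposited (reads per kilobase of exon, divided by a library total), which corrects for gene length and allows comparison between genes. Counts were recovered from the RPKM values, in which whole reads are visible as steps, and amounted to between 61670697 and 133046269 on listed genes. The markers of oocytes (10 genes such as Gdf9, Zp2 and Npm2) were present in every library, with a summed RPKM between 4443 and 6910. The 7 markers of stroma, theca and fibroblasts, among them the collagen gene Col1a1, summed to 5.52 RPKM in NGOs and to at most 0.263 in the other libraries, where 1 or 2 of them were at 0. The 8 granulosa markers summed to between 1.63 and 8.69 RPKM with none at 0, and the 5 markers of blood and endothelium to between 3.55 and 10.04, of which up to 2 were at 0. Single genes made up most of these sums in FGOs, Cyp19a1 (6.08) for granulosa and Pecam1 (9.70) for blood and endothelium. Others went the other way, as Wt1 had 110 counts in NGOs and 15 in FGOs, and Hba-a1 had 81 and 0. The part of such cells in the values of the 7 genes was not tested, and in pooled RNA fewer cells of a type and less RNA per cell cannot be told apart.

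The sequence upstream of a start site is shown for a gene of each level among those with a RefSeq promoter (assembly GRCm38.p6), which was found for 6 of the 7 genes and not for Dppa3. Zfp57 stood near the top of all genes in every library, Tet3 was the leading Tet gene, and Tdg was barely counted. The windows are the 250 bases before the start, given 5′ to 3′ on the strand of the gene, with CpG dinucleotides in capitals. They lie at chr17:37000913-37001162 on the plus strand for Zfp57 (the most upstream of 3 RefSeq starts, the window ending just before the first base listed for the gene), at chr6:83441679-83441928 on the minus strand for Tet3 and at chr10:82629588-82629837 on the plus strand for Tdg, whose last 10 bases lie within the listed span of the gene.
Zfp57: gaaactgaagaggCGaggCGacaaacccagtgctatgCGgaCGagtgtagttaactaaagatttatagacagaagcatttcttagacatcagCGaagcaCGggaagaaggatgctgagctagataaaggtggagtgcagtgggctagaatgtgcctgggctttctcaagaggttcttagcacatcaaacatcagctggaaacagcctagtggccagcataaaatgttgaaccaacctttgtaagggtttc
Tet3: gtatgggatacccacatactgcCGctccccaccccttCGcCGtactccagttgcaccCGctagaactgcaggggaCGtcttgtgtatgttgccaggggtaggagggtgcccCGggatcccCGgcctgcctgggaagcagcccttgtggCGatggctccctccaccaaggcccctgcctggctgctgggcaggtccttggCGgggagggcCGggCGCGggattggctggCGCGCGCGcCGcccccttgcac
Tdg: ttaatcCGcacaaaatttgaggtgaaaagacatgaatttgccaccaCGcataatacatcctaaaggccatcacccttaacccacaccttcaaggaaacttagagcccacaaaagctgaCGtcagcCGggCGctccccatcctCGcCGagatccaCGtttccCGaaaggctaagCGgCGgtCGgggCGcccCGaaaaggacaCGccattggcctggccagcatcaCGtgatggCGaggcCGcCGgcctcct
The Tet3 window holds 17 CpGs and the Tdg window 19, more than 76.5 % and 80.3 % of the windows of the same length at 32851 mouse promoters, whereas Zfp57 has 6, the median of all promoters. The Tet3 and Tdg windows were thus alike in CpG number, while their RPKM differed by at least 425-fold in each library. Of the other promoters, Tet2 had 51 CpGs, Trim28 had 17 and Tet1 had 15. The Tet1 window (chr10:62887325-62887574) lies within the listed span of the gene and not upstream of it. Searched on both strands, the GC box GGGCGG, which itself contains a CpG, was found in the Tet1, Tet2, Tet3 and Trim28 windows (32.7 % of all promoters hold it) and the TATA box TATAAA only at this Zfp57 start (12.4 %). The E-box CANNTG was present upstream of Zfp57, Tet3, Tdg and Trim28 (66.2 % of all promoters), and the element of the oocyte factor NOBOX, TAATTA or TAATTG, in none of the windows (11.3 %). These matches describe letters and not bound sites.

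Tet3 carried most of the Tet transcript at every stage. Tet3 (chr6:83362373-83441678, minus strand of GRCm38) had an RPKM of 21.4 (21.1 to 21.8) for NGOs, 47.8 (47.3 to 48.3) for GO1, 37.2 (36.9 to 37.5) for GO2 and 35.7 (35.3 to 36.2) for FGOs. NGOs were thus the lowest and GO1 the highest, with no overlap of the intervals, and Tet3 ranked between the 89.8th and the 96.8th percentile of detected genes (those with at least 3 counts). The listed span of Tet3 leaves out the part of the GENCODE gene upstream of base 83441678, which reaches base 83459084, so reads on exons that lie only there were not included. Within the dUTP libraries the scaled log2 change from NGOs to FGOs was 0.81 (0.78 to 0.84), a 1.75-fold higher value in FGOs. In the ScriptSeq libraries the change from GO1 to GO2 was -0.41 (-0.43 to -0.39), so both were below 2-fold.

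From NGOs to FGOs Tet2 moved opposite to Tet3, while both were lower in GO2 than in GO1. Tet2 (chr3:133463679-133544390, minus strand), which unlike the other family members lacks a CXXC domain of its own, stood at 1.90 RPKM (1.81 to 1.98) for NGOs, 2.50 (2.41 to 2.59) for GO1, 1.68 (1.63 to 1.73) for GO2 and 0.583 (0.539 to 0.630) for FGOs. All 4 intervals were apart, and FGOs were lowest. The change was -1.63 (-1.76 to -1.50) on the log2 scale from NGOs to FGOs, 3.10-fold lower in FGOs, and -0.62 (-0.69 to -0.55) from GO1 to GO2. The stroma markers, at 5.52 RPKM in NGOs and 0.245 in FGOs, were lower in FGOs too, and their part in this change was not tested.

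Tet1, the Tet gene best known from pluripotent cells and primordial germ cells, was low in every library. Tet1 (chr10:62804570-62899118, minus strand) had 80 counts for NGOs, 233 for GO1, 486 for GO2 and 226 for FGOs, or an RPKM of 0.0492 (0.0390 to 0.0612), 0.125 (0.109 to 0.142), 0.137 (0.125 to 0.150) and 0.128 (0.112 to 0.146), respectively. NGOs lay below the other libraries, while the intervals of FGOs overlapped those of GO1 and GO2. FGOs were higher than NGOs by a log2 change of 1.44 (1.08 to 1.84), or 2.72-fold, on a level that stayed between the 12.8th and 27.6th percentile. Adding 0.1 RPKM to both values reduced it to 0.61. The summed granulosa markers (2.26 to 8.69 RPKM) and those of blood and endothelium (3.55 to 10.04) were also higher in FGOs than in NGOs. Of the single markers, 2 of granulosa and 1 of blood and endothelium were past 2-fold lower. The part of such cells in the Tet1 change was not tested. The change from GO1 to GO2 was 0.09, with an interval from -0.14 to 0.32 that includes no change.

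The share of Tet3 within the family was higher, and that of Tet2 lower, at the later stage of both pairs. Tet3 made up 91.7 % (91.2 to 92.2 %) of the summed Tet RPKM for NGOs, 94.8 % (94.5 to 95.1 %) for GO1, 95.3 % (95.1 to 95.5 %) for GO2 and 98.0 % (97.8 to 98.2 %) for FGOs. Tet2 took 8.11 % for NGOs and 1.60 % for FGOs, and Tet1 never more than 0.353 %. The ratio of Tet3 to Tet2 was 11.3 for NGOs, 19.2 for GO1, 22.1 for GO2 and 61.3 for FGOs. GO1 and GO2 come from the other protocol, so stage and protocol cannot be told apart in the order of the 4 shares.

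Tdg had few counts in every library and came near the floor of detection in FGOs. Tdg (chr10:82629828-82650799, plus strand) had 30 counts for NGOs, 35 for GO1, 34 for GO2 and 5 for FGOs. In RPKM these were 0.0505 (0.0341 to 0.0721), 0.0514 (0.0358 to 0.0714), 0.0262 (0.0182 to 0.0366) and 0.00778 (0.00253 to 0.0181), and the floor of 3 counts corresponds to 0.00467 for FGOs. The values of NGOs and GO1 could not be separated, nor those of NGOs and GO2, while FGOs were below NGOs. FGOs were also below GO1 and GO2, which are of the other protocol, but the intervals of FGOs and GO2 all but touched. For FGOs against NGOs the log2 change was -2.41 with a wide interval of -4.35 to -1.25. The ScriptSeq pair gave -1.01 (-1.74 to -0.29), which passes 2-fold by so little that leaving out the scaling (-0.97) or scaling by the upper quartile (-0.99) ends the call. The part of the stroma markers, which were lower in FGOs than in NGOs as well, was not tested. The listed Tdg span shares its last 367 bases with Glt8d2 on the opposite strand, which had 27, 2, 12 and 3 counts in NGOs, GO1, GO2 and FGOs. The strand setting behind the values is not given in the sources used here, so reads of the shared bases cannot be told apart. Gm5806, listed at the place of the processed copy Tdg-ps, was at 0 in all 4 libraries, and the unrelated Tdgf1 had 1 count in GO2 and none elsewhere. A further copy, the transcribed pseudogene Tdg-ps2 (chr10:42052558-42055453), has no listed row, so reads placed there are not seen. The part of reads shared between Tdg and its copies was not tested.

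Several other glycosylases and later factors of base excision repair stood far above Tdg. Neil1, a glycosylase of oxidised bases, was above Tdg in RPKM in every library, at 0.0809 in GO1 to 0.471 in NGOs. It had few counts, with 61 for NGOs, 12 for GO1, 29 for GO2 and 28 for FGOs. In no library did Neil1 reach 10 times the highest Tdg value, which was 0.0514 RPKM in GO1. Ung, which removes uracil from DNA, had an RPKM of 36.0 for NGOs, 19.8 for GO1, 21.7 for GO2 and 25.5 for FGOs. Smug1, a second uracil glycosylase, stood between 6.55 and 15.8, and Mbd4, which acts on the same mismatches as TDG, between 2.22 and 2.75. The repair factors Xrcc1 and Lig3 stood at 17.1 to 25.8 and at 7.92 to 9.23, and the damage sensor Parp1 went from 50.9 for NGOs to 19.6 for FGOs. Of these, the 6 genes from Ung to Parp1 were each at more than 10 times the highest Tdg value in every library.

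On the list of 26 genes for oxidation, repair and cofactors of demethylation, 23 reached 20 counts over the libraries of each pair. From NGOs to FGOs, 2 of the 23 were past 2-fold higher (17.9 % of all genes were) and 7 past 2-fold lower (16.5 % of all genes), with a median log2 change of -0.07 against 0.01 over all genes. The higher ones were Neil3, a glycosylase of oxidised bases (5.09 RPKM for NGOs and 14.6 for FGOs, log2 change 1.59), and Alkbh1, a demethylase of nucleic acids (0.701 and 1.55, log2 change 1.22). Among the lower ones were Cxxc5, a partner of TET2 that binds CpG DNA (0.844 and 0.114, log2 change -2.78), Gadd45g, of the stress response family (25 and 3 counts, -2.74 with an interval of -5.47 to -1.39), and Idh2, a mitochondrial enzyme that makes the TET cosubstrate (0.709 and 0.168, -1.99). The other 4 were Neil1, Parp1, Gadd45a and Cul4a, named here after their values were seen, with log2 changes from -1.30 to -1.14. The summed stroma markers were lower in the same pair (5.52 to 0.245 RPKM, with -6.71 for Col1a1). The sums of granulosa markers (2.26 to 8.69) and of blood and endothelium markers (3.55 to 10.04) were higher. The part of such cells in the higher and lower values of the list was not tested. From GO1 to GO2 the median was 0.13 against 0.00 over all genes, and only Gadd45g was past 2-fold (6.46 % of all genes were higher and 3.13 % lower), at 1 count in GO1 and 27 in GO2 (log2 change 2.84, interval 1.18 to 9.14). Where GO1 or GO2 reached 100 counts, the largest other changes were 0.80 for Neil2, a further glycosylase, 0.28 for Xrcc1, -0.64 for Gadd45a and -0.45 for Cul4b, a ubiquitin ligase scaffold.

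Dppa3 was among the most abundant transcripts of the oocyte. Dppa3 (chr6:122626410-122630272, plus strand) had an RPKM of 844 (838 to 850) for NGOs, 960 (954 to 966) for GO1, 807 (803 to 810) for GO2 and 461 (457 to 466) for FGOs. The 4 intervals were apart and FGOs were lowest. A higher RPKM was found for only 14 genes of the NGO library, 9 of GO1, 8 of GO2 and 29 of FGOs. The log2 change was -0.80 (-0.82 to -0.79) from NGOs to FGOs, 1.74-fold lower, and -0.29 (-0.31 to -0.28) from GO1 to GO2. The ratio of Dppa3 to Zfp57 was 7.26 for NGOs, 6.00 for GO1, 5.08 for GO2 and 3.01 for FGOs. The pseudogene Dppa3-ps (chrX:37625380-37626197) has no listed row, and the part of reads shared with it was not tested.

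Zfp57 had the smallest spread of the 7 genes. Zfp57 (chr17:37001163-37010635, plus strand) was at 116 RPKM (115 to 117) for NGOs, 160 (159 to 161) for GO1, 159 (158 to 159) for GO2 and 154 (152 to 155) for FGOs. NGOs were lowest, GO1 and GO2 overlapped, and the highest value was 1.38 times the lowest. Zfp57 stood between the 99.0th and the 99.5th percentile, with between 91 and 165 genes above it. The log2 change was 0.47 (0.45 to 0.49) from NGOs to FGOs and -0.06 (-0.07 to -0.04) from GO1 to GO2. Zfp445, the other KRAB zinc finger gene known to act at imprinted regions, was much lower, with 5.41 RPKM for NGOs, 6.00 for GO1, 6.72 for GO2 and 7.96 for FGOs.

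Trim28 was lower in GO1 and GO2 than in NGOs and FGOs. Trim28 (chr7:13024152-13031035, plus strand) had an RPKM of 50.5 (49.8 to 51.1) for NGOs and 56.1 (55.4 to 56.7) for FGOs, but 18.1 (17.7 to 18.5) for GO1 and 27.1 (26.8 to 27.5) for GO2. Both dUTP libraries were above both ScriptSeq libraries. Within the pairs, the log2 change was 0.22 (0.20 to 0.25) from NGOs to FGOs and 0.54 (0.51 to 0.58) from GO1 to GO2, the later stage being higher each time. Zfp57 exceeded Trim28 by 2.30 times in NGOs and 2.74 times in FGOs, and by 8.85 times in GO1 and 5.85 times in GO2. Trim28 was above Tet3 in NGOs and FGOs and below it in GO1 and GO2, where stage and protocol cannot be told apart.

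**Figure D1:**
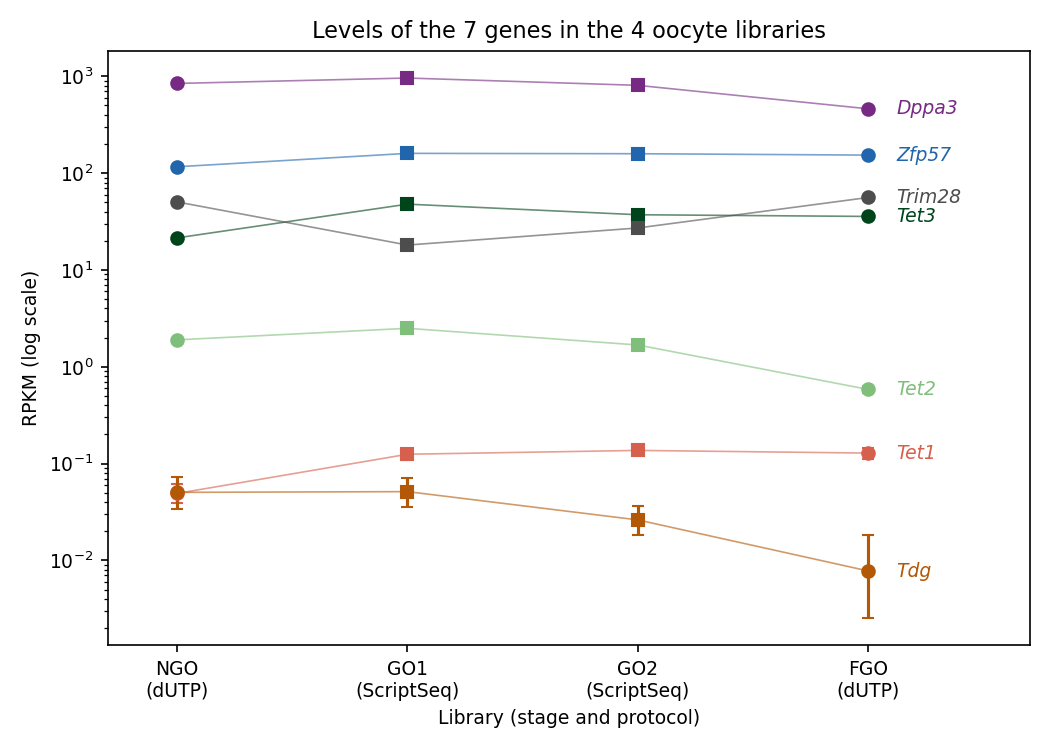
Points give the RPKM (log scale) of the 7 genes in the 4 libraries, circles for dUTP and squares for ScriptSeq libraries, with 95 % intervals of counting error that are mostly smaller than the symbols. Dppa3 and Zfp57 lead in every library, Tdg drops to 0.00778 RPKM in FGOs, and Trim28 is lower in GO1 (18.1) and GO2 (27.1) than in NGOs (50.5) and FGOs (56.1).

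A broader list of partners of methylation protection was measured in the same way, covering the KRAB zinc finger and TRIM28 complex and imprint maintenance. Of 24 rows for 23 genes (Atf7ip is listed in 2 rows), all with 20 or more counts, none was past 2-fold higher (17.9 % of all genes) and 2 were past 2-fold lower (16.5 % of all genes) from NGOs to FGOs, with a median log2 change of 0.22 against 0.01 over all genes. These were the histone deacetylase gene Hdac1 (0.682 RPKM for NGOs and 0.153 for FGOs, log2 change -2.07) and the H3K9 methyltransferase gene Ehmt2 (5.99 and 2.13, -1.42). The largest higher values were 0.98 for Arid4a and 0.76 for 1 row of Atf7ip, the cofactor of SETDB1. From GO1 to GO2 none passed 2-fold, against 6.46 % of all genes higher and 3.13 % lower, and the median was -0.12, with -0.74 for Arid4b and -0.67 for the HP1 gene Cbx3 at one end and 0.27 for the H3.3 chaperone gene Daxx and 0.23 for the remodeller gene Chd4 at the other. Setdb1, which encodes the H3K9 methyltransferase that TRIM28 recruits, stood at 26.9, 30.7, 33.6 and 35.0 RPKM in NGOs, GO1, GO2 and FGOs. The transcript of Hdac2 (13.9 to 19.5 RPKM) was above that of its paralog Hdac1 (0.153 to 1.42) in every library.

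**Figure D2:**
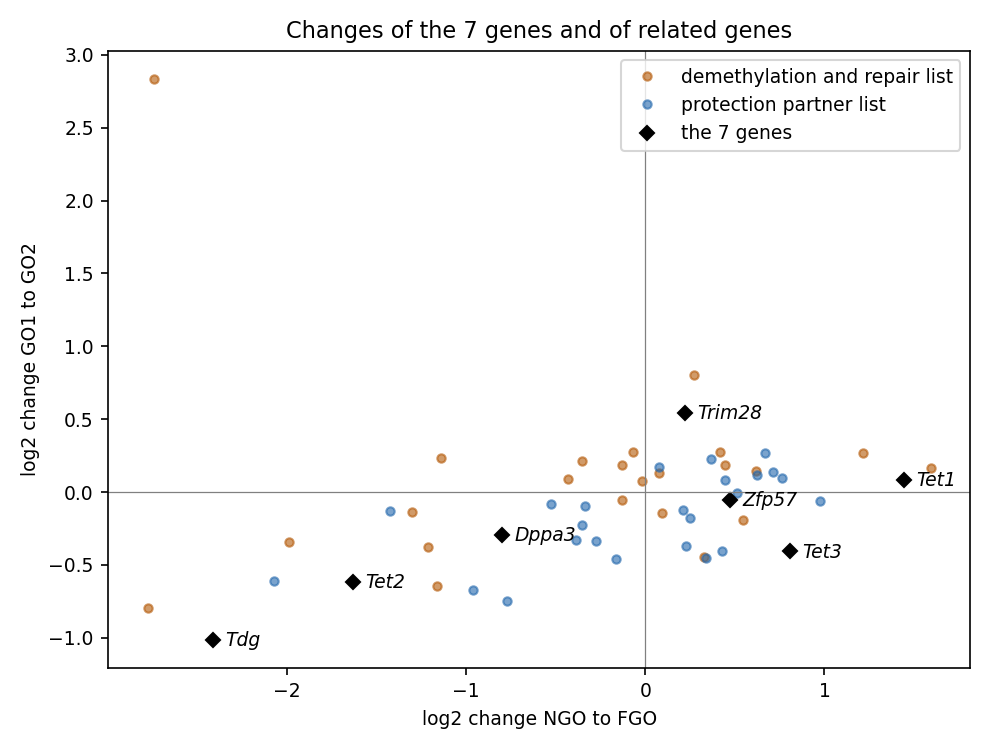
Each point is a gene, with the log2 change from NGOs to FGOs on the horizontal axis and from GO1 to GO2 on the vertical axis, for the 7 genes (diamonds), the demethylation and repair list and the protection partner list. Most list genes lie within 1 log2 unit on both axes, Gadd45g stands alone at the top (-2.74 and 2.84) on few counts, and Tdg lies at the lower left.

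Of the 7 genes, 3 passed 2-fold in a pair. From NGOs to FGOs, 1 of the 7 was at least 2-fold higher (Tet1), as were 17.9 % of the 15246 genes that reached 20 counts over both libraries. At least 2-fold lower were 2 of the 7 (Tet2 and Tdg), against 16.5 % of all genes. From GO1 to GO2 none of the 7 was at least 2-fold higher, against 6.46 % of 15730 genes, and 1 was at least 2-fold lower (Tdg), against 3.13 %. These 3 genes were the least counted of the 7, while Tet3, Dppa3, Zfp57 and Trim28 stayed within 2-fold in both pairs. Tet2, Tdg and Dppa3 had lower values at the later stage of both pairs, and Trim28 and Tet1 higher ones, although for Tet1 the interval from GO1 to GO2 includes no change. Tet3 and Zfp57 were higher in FGOs than in NGOs and lower in GO2 than in GO1. For Zfp57 the RPKM intervals of GO1 and GO2 overlapped, and the log2 change of -0.06 was -0.01 without scaling.

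**Figure D3:**
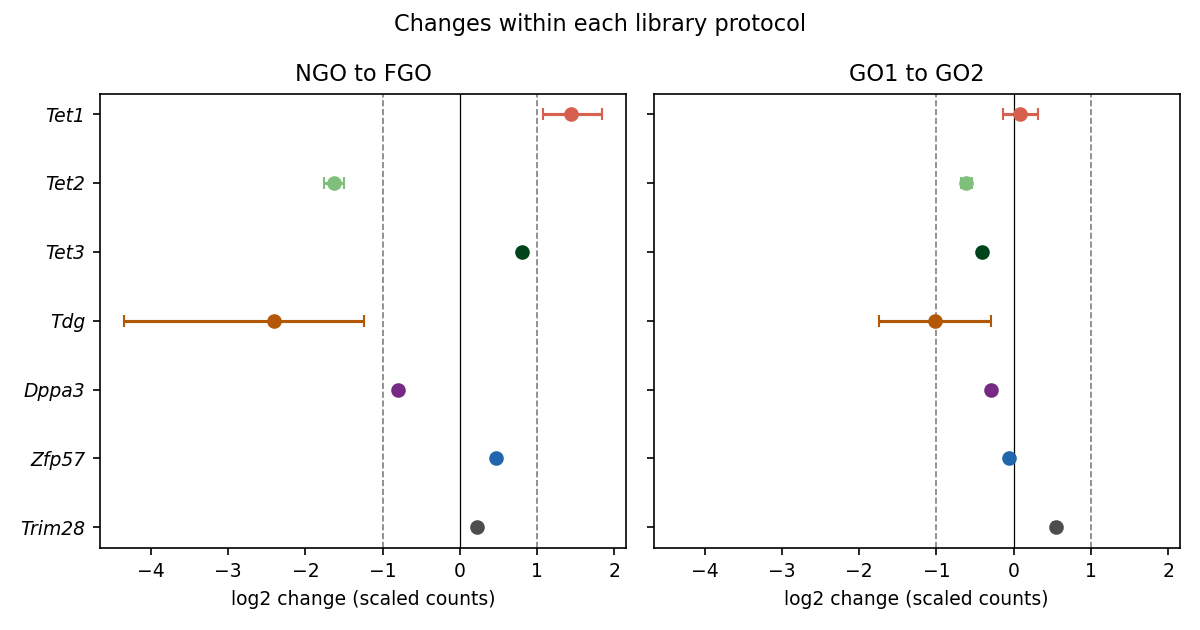
Points give the scaled log2 change of each of the 7 genes from NGOs to FGOs (left) and from GO1 to GO2 (right), with 95 % intervals of counting error and dashed lines at 2-fold. Tet1 (1.44), Tet2 (-1.63) and Tdg (-2.41) lie past 2-fold on the left, and on the right only Tdg (-1.01), with an interval that crosses the line.

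Both ScriptSeq libraries were above both dUTP libraries in RPKM for 2 of the 7 genes (Tet3 and Zfp57), against 21.4 % of 16660 genes, and below them for 1 (Trim28), against 29.7 %. With trimmed-mean scaling of the libraries Tet1 and Dppa3 joined Tet3 and Zfp57 above, the share of all genes being then 26.3 %, and Trim28 stayed below (25 %). The difference between the ScriptSeq and the dUTP libraries, in which stage and protocol cannot be told apart, moved with GC content. GC content was known for 89.0 % of these genes. The median of the ScriptSeq libraries minus the dUTP libraries went from 0.57 (log2) in the decile of genes with the lowest GC content to -0.75 in the decile with the highest. Trim28, at 59.6 % GC in the highest decile, had a difference of -1.13, inside the quartiles of that decile (-1.38 to -0.18). Tet3, at 53.4 % GC, had 0.74, above the quartiles of its decile (-0.88 to 0.19). The other 5 genes lay between 43.7 and 47.9 % GC with differences from 0.39 to 1.09, above the median of their deciles. Of these, Tet2 (1.09), Tdg (0.91) and Tet1 (0.84) were also above the upper quartile of their deciles (0.71, 0.57 and 0.83). Dppa3 (0.63) and Zfp57 (0.39) were inside the quartiles. The part of GC content in these differences was not tested.

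**Figure D4:**
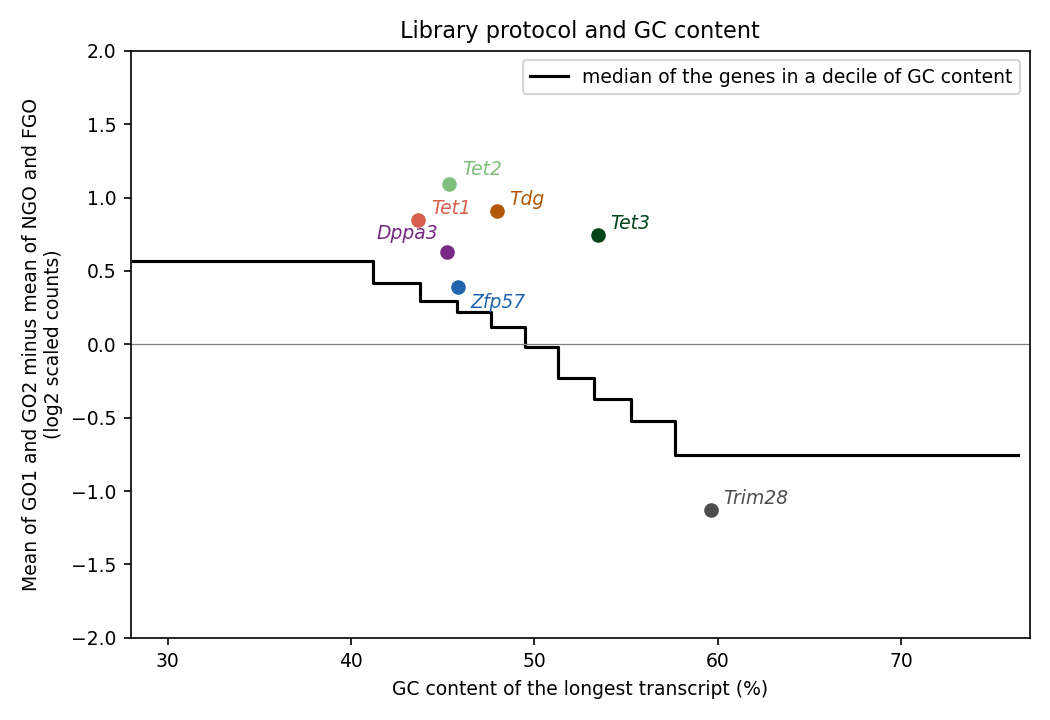
The horizontal axis is the GC content of the longest transcript (%) and the vertical axis the mean log2 scaled count of GO1 and GO2 minus that of NGOs and FGOs. The black line, the median of all genes in each decile of GC content, goes from 0.57 to -0.75, with Trim28 at -1.13 below it and Tet3 at 0.74 above it.

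The genes with the pattern most like each of the 7 were sought among 10748 genes that reached 100 counts in all libraries, by Euclidean distance of log2 RPKM centred on the mean of the 4 libraries. This distance spans both protocols, so stage and protocol cannot be told apart in a shared pattern. The part of GC content in it was not tested. Nearest to Tet3 was the Polycomb gene Eed, at a distance of 0.03, with 25.1 RPKM for NGOs, 55.1 for GO1, 44.0 for GO2 and 41.3 for FGOs. Gbx2 and Cdc40 followed for Tet3. For Dppa3 the nearest were Taf1, Kctd9 and Dis3, for Zfp57 Ripk1, Ss18 and Prim2, and for Tet1 Acot3, Mdm4 and Ipcef1. For Trim28 they were Trmt2a (0.07), 2810408M09Rik and 2610002J02Rik, each low in GO1 and GO2 as Trim28 was, and for Tet2 they were Zfp326, Neb and Gm5830. For Tdg they were Gjc1 (0.255), the synaptonemal complex gene Sycp1 (0.30) and Gm10567 (0.31). The number of genes within 0.25 was 578 for Zfp57, 162 for Dppa3, 89 for Trim28, 83 for Tet3, 68 for Tet1, 5 for Tet2 and 0 for Tdg. Tet1 (80 counts in NGOs) and Tdg (5 counts in FGOs) did not reach 100 counts themselves, so counting error adds to their distances. Among the 7 genes themselves Tet3 and Zfp57 were the closest pair (0.49), and Tdg and Trim28 the most distant (3.15).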

How the data were processed

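RNA-Seq of 4 libraries (1 per stage) was analysed. The deposited values are RPKM, although they are named as read counts. Per the labels the authors trimmed reads with Trim Galore 0.2.8 and mapped them to GRCm38 with TopHat2 2.0.9. The program, annotation and strand setting behind the RPKM are not given in the sources used here. Library totals and counts were recovered by making RPKM times exon length (GENCODE M21) times total whole, which held for at least 99.2 % of values of genes with 1 exon, within 0.01 of a count. For Tet1, Tet3 and Trim28 the smallest length that made counts whole was used, so their counts may be too small by a whole factor, without effect on RPKM. The totals, from 110595206 to 241385714, exceed the uniquely mapped reads the study lists, so a read may be counted more than once and intervals may be too narrow.

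Changes are log2 ratios of counts with a prior count of 1, with libraries scaled by the mean of log ratios after trimming (30 % of ratios and 5 % of mean expression from each end), for genes that reach 20 counts over both libraries. Intervals are exact (Poisson for counts, conditional binomial for ratios). Python 3.11.15, numpy 2.4.6, pandas 2.3.3, scipy 1.17.1 and matplotlib 3.10.9 were used, and the scripts were tested on simulated data. With 1 library per stage no program that models counts was used. The 7 genes and the gene lists were chosen with earlier results of these data known. Named from the lists were genes past 4-fold or, where fewer than 4 were, the 2 largest rises and falls of genes that reach 100 counts in either library. Also named were rows overlapping a member or sharing its name, the 3 nearest patterns and the markers.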

Additional observations from a re-analysis of the deposited data

How the results depend on the processing

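No paired analysis was possible because each stage has 1 library, which also means that no library could be left out. No change of the 7 genes turned direction under the alternatives run; single list genes were only counted. The rise of Tet1 from NGOs to FGOs left 0 genes past the threshold at log2(RPKM + 0.1), at log2(RPKM + 1) and at 4-fold. Of the 2 falls, 1 remained past it at log2(RPKM + 0.1) (Tet2), 0 at log2(RPKM + 1), 1 with a minimum of 100 counts (Tet2) and 1 at 4-fold (Tdg). The fall of Tdg from GO1 to GO2 became 0 genes without scaling, with the upper quartile, with both pseudocounts, with 100 counts and at 4-fold. A pseudocount shrinks changes of low genes by construction. On the demethylation list, the 2 rises from NGOs to FGOs became 1 at log2(RPKM + 1) and 0 at 4-fold, and the 7 falls became 2 under each of these. From GO1 to GO2 its 1 rise became 0 with both pseudocounts and with 100 counts, and 1 fall appeared with no minimum. The 2 falls of protection partners became 1 at log2(RPKM + 1) and 1 at 4-fold. The 2 genes above in both ScriptSeq libraries became 4 with trimmed-mean scaling and 0 if the protocols had to be 1.5-fold apart. A correction for GC content was added after seeing the data and gave 1.34 for Tet1, -1.72 for Tet2, -2.49 for Tdg, 0.94 for Tet3, -0.89 for Dppa3, 0.40 for Zfp57 and 0.37 for Trim28 (0.22 without it) from NGOs to FGOs. Counted without division by length, Tet3 took 86.8 to 96.5 % of the Tet counts. These shares depend on the recovered counts of Tet3 and Tet1, which may be too small by a whole factor. Shares by coding length were not run. Depth limits Tdg most, with 5 counts in FGOs.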
